A study of Mus musculus with 22 samples.

Results

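The phosphorylated histone γH2AX was compared between testes of mice carrying 3 Robertsonian translocations (3Rb) and testes of mice carrying 1 (1Rb_M), by chromatin immunoprecipitation and sequencing. The comparison used the 3 γH2AX libraries titled 3Rb and the 3 titled 1Rb_M, 6 of the 22 libraries of the series, and was chosen by those titles. A Robertsonian translocation joins 2 chromosomes at their centromeres, so that a heterozygous carrier has to pair 1 joined chromosome with 2 separate partners in meiosis. 3Rb mice were F1 animals of B6.SPRET7MOLF12 and RBF/Dnj, labelled as heterozygous for 3 translocations. 1Rb_M mice were F1 animals of CBy.RBF-Rb(8.12)5Bnr/J and B6.SPRET7MOLF12, labelled as heterozygous for a single translocation, which the strain name gives as 8 with 12. All were whole testes at 4 weeks, precipitated with the Millipore antibody against H2A.X phosphorylated at Ser139 (clone JBW301). As background, RBF/Dnj is known to carry translocations of 1 with 3, 8 with 12 and 9 with 14, so the 8 and 12 translocation is shared by both crosses, and 1, 3, 9 and 14 are joined only in 3Rb. Both crosses share the B6.SPRET7MOLF12 parent but differ in the other parent, and if the labels write the mother first they also differ in the source of X and Y. Strain and translocation therefore cannot be told apart in this comparison.

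γH2AX forms when kinases phosphorylate the histone variant H2AX, first around DNA breaks in early meiotic prophase and later along chromosome stretches that have not paired with a partner. In pachytene spermatocytes it coats X and Y, which pair only in a short region and are transcriptionally silenced in the sex body. Autosomal stretches that stay unpaired, such as those next to the centromere in translocation carriers, can be silenced by the same machinery. Read counts from whole testis give the average over all its cells, so more cells carrying the mark cannot be told apart from more mark per cell.

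Every value rested on counts per 50 kb window. The 4 promoters printed here lie in windows described below, and the starts of Snrpn lie in windows with unlike outcomes. Each runs from 250 bases before to 50 after a gene start, from RefSeq (GRCm38.p6), with each CpG in capitals. The promoter of Ppp3cb, a catalytic subunit of the phosphatase calcineurin, lay at chr14:20546524-20546823 (minus strand) in a window that rose in 3Rb. The promoter of Glp1r, the receptor for the gut hormone GLP-1, lay at chr17:30901617-30901916 (plus strand) in a window that fell. The shared start of the imprinted genes Snurf and Snrpn lay at chr7:60005150-60005449 (minus strand) in a window that was not called, and an upstream start of Snrpn lay at chr7:60450128-60450427 (minus strand) in a window that fell.
Ppp3cb: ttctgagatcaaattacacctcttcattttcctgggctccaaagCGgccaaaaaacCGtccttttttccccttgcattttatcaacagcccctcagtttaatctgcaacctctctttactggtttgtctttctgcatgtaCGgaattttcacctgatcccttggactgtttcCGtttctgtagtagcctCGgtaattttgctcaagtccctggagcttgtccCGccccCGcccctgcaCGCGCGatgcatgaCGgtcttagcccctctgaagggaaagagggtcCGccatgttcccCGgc
Glp1r: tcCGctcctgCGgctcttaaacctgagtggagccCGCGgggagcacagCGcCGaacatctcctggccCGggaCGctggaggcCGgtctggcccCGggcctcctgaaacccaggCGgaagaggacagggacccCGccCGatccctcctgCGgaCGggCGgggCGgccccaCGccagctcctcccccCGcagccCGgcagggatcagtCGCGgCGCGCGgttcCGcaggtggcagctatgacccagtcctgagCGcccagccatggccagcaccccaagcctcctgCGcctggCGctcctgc
Snurf and Snrpn: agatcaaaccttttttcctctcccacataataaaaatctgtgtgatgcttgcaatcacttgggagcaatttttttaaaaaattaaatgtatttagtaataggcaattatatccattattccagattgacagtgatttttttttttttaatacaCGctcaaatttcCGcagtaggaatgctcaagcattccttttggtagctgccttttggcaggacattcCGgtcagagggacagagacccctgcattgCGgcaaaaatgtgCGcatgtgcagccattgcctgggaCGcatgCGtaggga
Snrpn, upstream start: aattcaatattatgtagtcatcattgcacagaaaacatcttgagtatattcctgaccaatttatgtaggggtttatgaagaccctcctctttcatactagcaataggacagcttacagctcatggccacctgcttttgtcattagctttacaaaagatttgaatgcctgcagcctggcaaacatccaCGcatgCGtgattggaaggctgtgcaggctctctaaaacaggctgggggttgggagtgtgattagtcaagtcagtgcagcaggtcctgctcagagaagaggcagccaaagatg
These 4 held 13, 29, 7 and 2 CpG, against a median of 7 over 32851 promoters of the same length. As many CpG or more were found in 37.9% of those promoters for Ppp3cb and in 12.9% for Glp1r. The share was 52.1% for the shared Snurf and Snrpn start and 85.9% for the upstream start of Snrpn. A window holds far more sequence than its promoter, so none of its counts can be assigned to these bases.

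The 6 libraries were of like depth, with 49846400 to 56385465 counts in 3Rb and 45527545 to 52775888 counts in 1Rb_M. The median window held 690 to 779 counts, a counting error of 3.58 to 3.81%. Their replicates did not vary alike. Chi-square per degree of freedom over windows was 1.87 to 2.12 between the 3Rb libraries. Between 1Rb_M replicates 1 and 2 it was 2.76, but it was 28.1 and 34.6 between replicate 3 and these 2. The median SD of the log2 level within a group was 0.0529 in 3Rb and 0.0946 in 1Rb_M over all windows. It was 0.0641 in 3Rb and 0.415 in 1Rb_M on X, and 0.0505 in 3Rb and 0.274 in 1Rb_M in the first 10 Mb of 8 and 12. On X, on Y and near the centromeres of 8 and 12 the 1Rb_M libraries were thus several times as far apart as the 3Rb libraries. Chromosomes, regions and named windows whose value or call rested on 1Rb_M replicate 3 are therefore also given against that replicate alone or without it. In the fit with that replicate alone, 1Rb_M has 1 library. No spread among 1Rb_M libraries then enters the p, so calls from that fit do not measure it. The labels do not say that replicates come from separate animals, so the spread behind each p may be technical.

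On X, the place where γH2AX is best known in the testis, 3Rb and 1Rb_M did not separate. X took 17.9, 18.8 and 18.9% of counts in 3Rb, against 12.3, 12.3 and 18.9% in 1Rb_M. The first 2 of the 1Rb_M libraries lay below every 3Rb library and the third lay among them, all far above the 3.16 to 3.17% in the 3 input libraries. Over the whole chromosome the edgeR difference was 0.44 ± 0.19 (SE), adjusted p = 0.106. Against replicate 3 alone it was -0.0061 (adjusted p = 0.901), and without replicate 3 it was 0.73 (adjusted p = 2.88e-06). The same held for single windows of X: 725 of 3311 were called higher, but between 149 and 234 when any library other than 1Rb_M replicate 3 was left out, and 3267 without that replicate. Against replicate 3 alone 379 were, and DESeq2 called 2050 higher as well as X as a whole (0.43). The longest run of risen bins on X lay at 112 to 129 Mb, chosen after its values were seen, with means of 58.8, 61.3 and 62.7 CPM in 3Rb, against 27, 28.3 and 43.7 CPM in 1Rb_M per window.

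**Figure D1:**
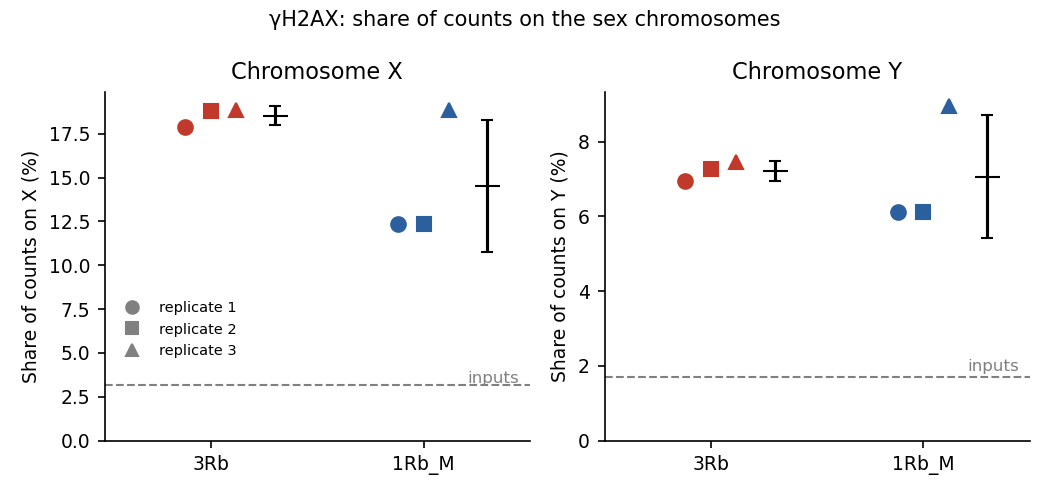
Share of γH2AX counts on X (left) and Y (right) in percent, for each 3Rb and 1Rb_M library (marker shape gives the replicate), with mean and SD beside the points and the mean of the inputs as a dashed line. On X the 3Rb libraries sit at 17.9, 18.8 and 18.9%, and 1Rb_M replicate 3 at 18.9% stands with them while replicates 1 and 2 sit at 12.3%.

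On Y the 1Rb_M libraries lay on either side of 3Rb. Y took 6.94, 7.27 and 7.44% of counts in 3Rb, against 6.11, 6.11 and 8.97% in 1Rb_M and 1.66 to 1.74% in the inputs. 1Rb_M replicates 1 and 2 lay below and replicate 3 above all 3Rb libraries. The difference over the chromosome was 0.12 ± 0.17 (SE), adjusted p = 0.636; it was -0.29 against replicate 3 alone (adjusted p = 0.00705) and 0.38 without it (adjusted p = 0.000225), so its direction depended on that library. On the measure with 1 value per library, the log2 ratio to pooled input relative to the 13 autosomes in no translocation, X had 2.87, 2.97 and 2.98 in 3Rb, against 2.18, 2.18 and 2.97 in 1Rb_M, and Y had 2.39, 2.48 and 2.53 in 3Rb, against 2.05, 2.06 and 2.78 in 1Rb_M. The difference was 0.50 for X (two-sided exact permutation p = 0.2) and 0.17 for Y (exact p = 0.4), where 3 against 3 libraries allow no p below 0.1; adjusted over the 7 regions compared they were 0.467 and 0.467. Without 1Rb_M replicate 3 these differences were 0.76 for X and 0.41 for Y, and Y had 0.050 and 0.053 without replicate 1 or 2. On this measure the 3 libraries of 1Rb_P, the cross of C57BL/6J with the 8 and 12 line, had 2.93, 2.86 and 2.85 on X, near 3Rb and 1Rb_M replicate 3. On Y the 1Rb_P libraries had 2.77, 2.66 and 2.64, above every 3Rb library.

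Over the whole genome a large share of windows differed. Of 53118 windows tested with edgeR's quasi-likelihood test, 9649 rose in 3Rb and 10747 fell at an adjusted p under 0.05, 18.2% and 20.2% of those tested. Off X and Y, 8692 of 48016 windows rose and 10156 fell. Over all windows the differences were small: the median was 0.25 (log2) among those that rose and -0.27 among those that fell, and 274 rose and 65 fell by more than 2-fold. The libraries of the 2 groups did not overlap in 8912 of the windows that rose and 10013 of those that fell; over all windows tested, 3Rb lay wholly above 1Rb_M in 22% and wholly below in 24%. Against 1Rb_M replicate 3 alone, a library that is also part of the main comparison, 99.9% of the rises and 99.7% of the falls kept their sign. Their medians there were 0.30 and -0.29. In the fits that left out each of the 6 libraries in turn and that with replicate 3 alone, together 8 with the fit of all libraries, 5306 windows (9.99%) rose and 6609 (12.4%) fell in every fit. The balance of rises and falls depended on the scaling: with library totals in place of trimmed means (TMM) the median of all windows was -0.085, against 0.014 with TMM, and 4531 windows rose and 16197 fell; with TMM factors from the 13 autosomes in no translocation 12375 rose and 9122 fell. Differences are therefore relative to the bulk of the genome.

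Summed per chromosome, 4 chromosomes rose (19% of 21) and 5 fell (23.8%). The largest rise was on 14, with 4.41, 4.43 and 4.47% of the scaled counts in 3Rb, against 3.92, 3.99 and 3.73% in 1Rb_M. Its difference was 0.19 ± 0.025 (SE), adjusted p = 0.000943, or 0.25 against replicate 3 alone and 0.16 without it. Chromosome 3 had 4.67, 4.62 and 4.61% of the scaled counts in 3Rb, against 4.38, 4.46 and 4.2% in 1Rb_M, a difference of 0.091 ± 0.022 (SE), adjusted p = 0.0134. Chromosome 1 had 5.63, 5.62 and 5.64% of the scaled counts in 3Rb, against 5.39, 5.44 and 5.09% in 1Rb_M, a difference of 0.085 ± 0.023 (SE), adjusted p = 0.0214. Chromosome 13, in no translocation, rose by 0.058 ± 0.017 (SE), adjusted p = 0.0305. Against replicate 3 alone chromosomes 3, 1 and 13 differed by 0.14, 0.14 and 0.10, and without it by 0.067, 0.056 and 0.039, called in both. On all 4 every 3Rb library lay above every 1Rb_M library. The rise of 14 was lost only with library totals (0.091), which also turned 1, 3 and 13 to -0.016, -0.0094 and -0.043. Chromosome 3 was not called without 3Rb replicate 1 (0.086), and 1 and 13 were not called without any single 3Rb replicate (1: 0.071 to 0.086, 13: 0.043 to 0.060). Neither 1 nor 13 was called with only the 6 libraries compared, and 13 was not called with the replicate number as a block.

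Those that fell were 7, 11, 17, 5 and 4. Chromosome 7 had 3.59, 3.55 and 3.6% of the scaled counts in 3Rb, against 4.03, 3.94 and 3.76% in 1Rb_M, a difference of -0.13 ± 0.023 (SE), adjusted p = 0.0043. Chromosome 11 fell by 0.086 ± 0.012 (SE), adjusted p = 0.00121, chromosome 17 by 0.083 ± 0.010 (SE), adjusted p = 0.000943 and chromosome 5 by 0.063 ± 0.013 (SE), adjusted p = 0.00547. These 4 were called in all 15 alternative fits, with 3Rb libraries below all 1Rb_M libraries. Against replicate 3 alone chromosomes 7 and 5 differed by -0.071 and -0.038, and without it by -0.15 and -0.076. Chromosome 4 fell by 0.042 ± 0.014 (SE), adjusted p = 0.0426, and was not called without 3Rb replicate 1 or 2 or without 1Rb_M replicate 1 or 2 (-0.045, -0.042, -0.032 and -0.037). Against replicate 3 alone it differed by -0.0099 and was not called (adjusted p = 0.355), nor was it with TMM from the 13 autosomes in no translocation, with the share of X as a covariate or with the replicate number as a block (-0.013, -0.012 and -0.042). Chromosomes 9, 8 and 12 of the translocations were not called as wholes. Chromosome 9 had a difference of 0.13 ± 0.065 (SE), adjusted p = 0.132. It was 0.29 against replicate 3 alone, but 0.064 without that replicate (adjusted p = 0.21). Its first window alone took 2.0 to 3.19% of all counts, where the whole chromosome took 5.52 to 7.11%. Chromosome 9 was called without windows of unusual input. It was also called with TMM from the 13 autosomes in no translocation and with the share of X as a covariate. Chromosome 8 had -0.052 ± 0.024 (SE), adjusted p = 0.123, and was called without 1Rb_M replicate 2 (-0.071). It was -0.11 against replicate 3 alone (adjusted p = 0.000195) and -0.021 without it (adjusted p = 0.0583). Chromosome 12 had 0.046 ± 0.026 (SE), adjusted p = 0.18, and 0.080 without 1Rb_M replicate 3, where it was called, against -0.018 with that replicate alone. The remaining 7 autosomes lay between -0.018 and 0.052 and were not called. Among them, chromosomes 2 and 6 differed by 0.16 and 0.063 against replicate 3 alone, and by 0.00080 and -0.012 without it. The median window of chromosome 2 differed by 0.030 against replicate 3 alone. With all libraries but without windows of unusual input, the difference of chromosome 2 changed sign and was not called.

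On 1, 3 and 9 the rise began next to the centromeres, which in the mouse lie at the start of each assembled chromosome, and on 14 it lay a few Mb farther in. In the first 10 Mb of assembled sequence of these 4 chromosomes (3 to 13 Mb), 711 of 800 windows rose and 8 fell, 88.9% against 18.2% over all windows, and 702 rose in all 8 fits. In the same stretch of the 13 autosomes in no translocation, 285 of 2590 rose and 362 fell. Means over the first 10 Mb leave out windows of unusual input, which the counts of called windows include. On chromosome 9, 199 of 200 windows entered the mean. The stretch of chromosome 9 averaged 19.3, 19.8 and 19.6 CPM in 3Rb, against 12.6, 13.1 and 10.7 CPM in 1Rb_M per window. That of chromosome 1 averaged 20.1, 20.5 and 20.8 CPM in 3Rb, against 13.3, 13.9 and 12.2 CPM in 1Rb_M. That of chromosome 3 averaged 17.6, 17.8 and 18.2 CPM in 3Rb, against 12.9, 13.2 and 11 CPM in 1Rb_M. On each of these the 3Rb libraries lay close together and above all 1Rb_M libraries, and replicate 3 was the lowest of 1Rb_M. The 3Rb mean was 1.61-fold that of 1Rb_M on 9, 1.56-fold on 1 and 1.44-fold on 3. It was 1.83, 1.68 and 1.62-fold that of replicate 3, and 1.52, 1.5 and 1.36-fold that of replicates 1 and 2. In 1Rb_P, a cross of C57BL/6J with the same 8 and 12 line, the mean was 11.4 CPM on 9, 12.7 CPM on 1 and 11.5 CPM on 3. Here the spread of 1Rb_M changed the size of the difference and not its presence.

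Chromosome 14 followed another course. Its first 10 Mb averaged 15.4, 15.8 and 16.2 CPM in 3Rb, against 14, 14 and 12.9 CPM in 1Rb_M, 1.16-fold, with 115 of 200 windows up. The next 10 Mb averaged 21, 22 and 21.8 CPM in 3Rb, against 14.4, 14.3 and 13.8 CPM in 1Rb_M, 1.53-fold, with 186 of 200 up. In its first 10 Mb H3.3 fell in 48 windows of the 3Rb libraries relative to 1Rb, 24% against 4.01% of all windows, and the part of this in the γH2AX result was not tested. On the measure with 1 value per library, the first 10 Mb of the 4 chromosomes had -0.086, -0.12 and 0.011 in 3Rb, against -0.33, -0.23 and -0.63 in 1Rb_M. Every 3Rb value exceeded every 1Rb_M value, the difference was 0.33 and the exact p was 0.1, the lower bound for these group sizes (adjusted p = 0.35). It was 0.22 without 1Rb_M replicate 3 and 0.57 against that replicate alone. The first window of chromosome 9 alone took 2.0 to 3.19% of all counts in these libraries, and without windows of unusual input the difference was 0.55. Over the rest of these 4 chromosomes it was 0.10 (exact p = 0.1), and at the starts of the 13 autosomes in no translocation 0.0091 (exact p = 0.4).

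**Figure D2:**
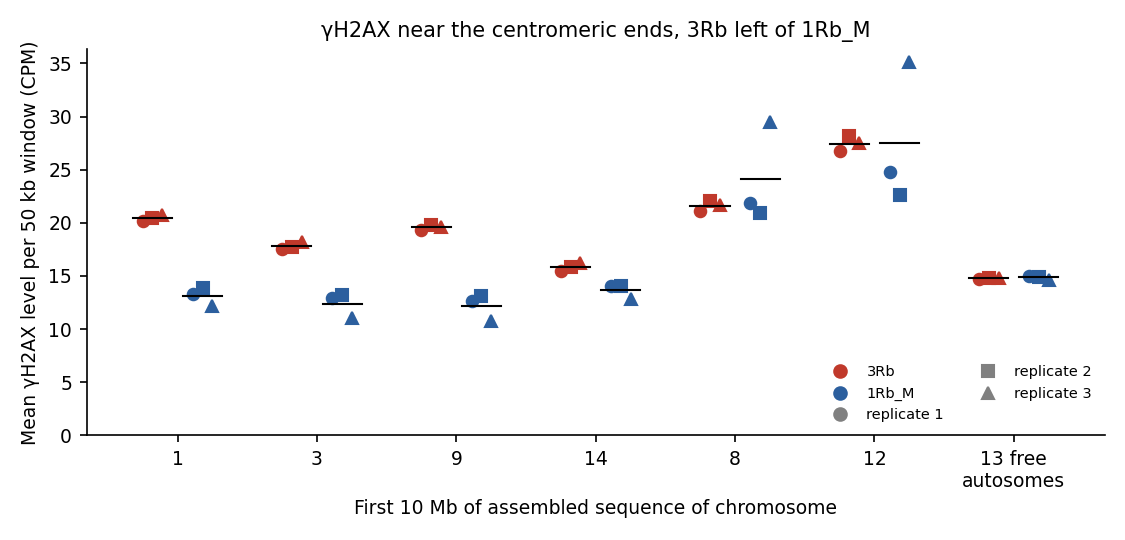
Mean γH2AX level per 50 kb window (CPM) over the first 10 Mb of assembled sequence, windows of unusual input left out, for each 3Rb library (red, left) and 1Rb_M library (blue, right), with the group mean as a line. On 1, 3 and 9 all 3Rb libraries lie between 17.6 and 20.8 CPM and 1Rb_M libraries between 10.7 and 13.9 CPM; on 8 and 12 replicate 3 of 1Rb_M stands above the 3Rb libraries and replicates 1 and 2 stand among or below them.

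Counts summed in 1 Mb bins showed how far these rises ran. Of 2672 bins, 619 rose (23.2%) and 718 fell (26.9%). On chromosome 1 every bin from 3 to 35 Mb rose, and every bin to 34 Mb did so in all 8 fits. On chromosome 3 every bin from 3 to 34 Mb rose, all of them in all 8 fits. On chromosome 9 every bin from 4 to 26 Mb rose, and to 21 Mb in all 8 fits. Differences declined with distance: on chromosome 9 the bin at 4 Mb differed by 0.82, at 14 Mb by 0.43 and at 24 Mb by 0.16, and on chromosome 1 the bins at these positions differed by 0.69, 0.40 and 0.28. On chromosome 14 no bin at 3, 4, 5 or 6 Mb was called, with differences of -0.10, 0.018, -0.050 and 0.028, and the bin at 18 Mb differed by 0.80.

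**Figure D3:**
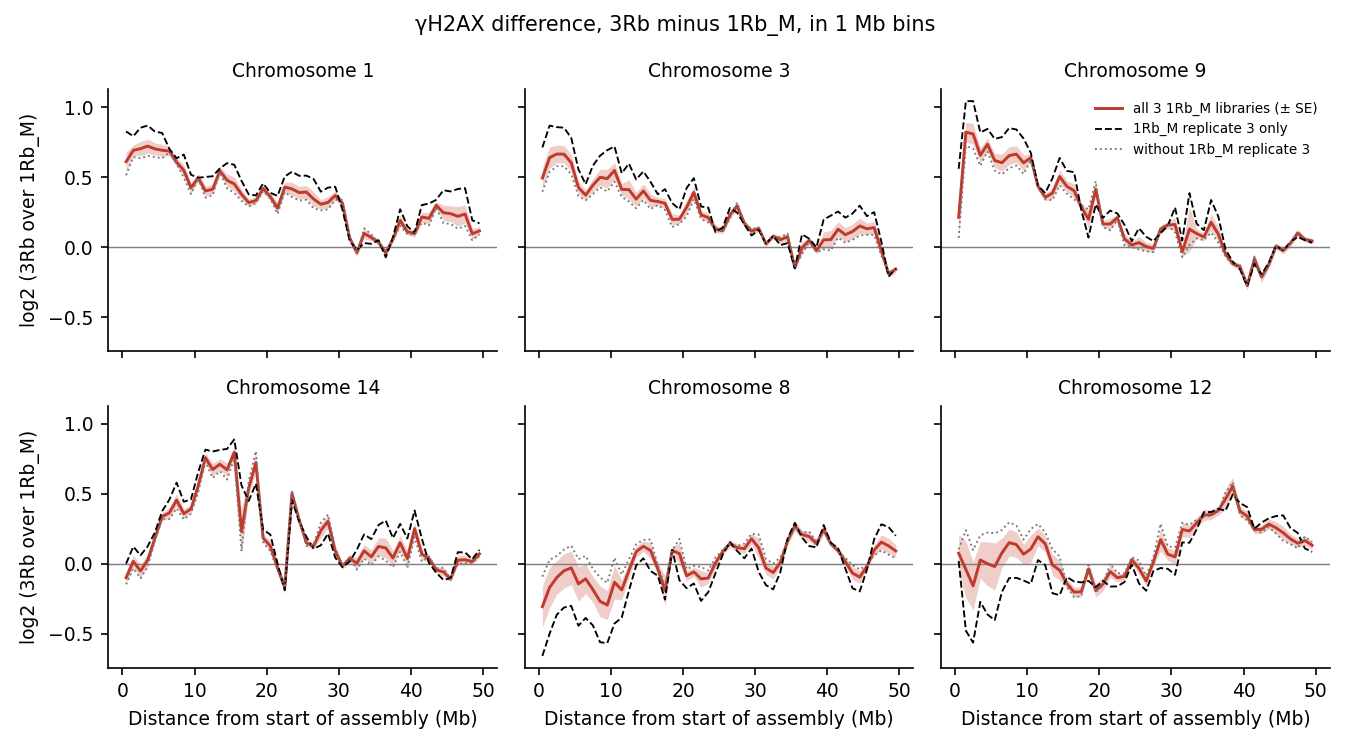
γH2AX difference (log2, 3Rb over 1Rb_M) in 1 Mb bins along the first 50 Mb of assembled sequence of 6 chromosomes, from all libraries (red line, band ± SE), against 1Rb_M replicate 3 alone (dashed) and without it (dotted). On 1, 3 and 9 all 3 lines start high and decline, on 14 they peak away from the start, and at the start of 8 and 12 the dashed and dotted lines lie on either side of the red line.

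Near the centromeres of 8 and 12, joined in both crosses, no stable difference was found, and the 1Rb_M spread set its sign. The first 10 Mb of chromosome 8 averaged 21.1, 22 and 21.7 CPM in 3Rb, against 21.9, 20.9 and 29.4 CPM in 1Rb_M. That of chromosome 12 averaged 26.7, 28.2 and 27.5 CPM in 3Rb, against 24.8, 22.7 and 35.1 CPM in 1Rb_M. On both, replicate 3 was above all 3Rb libraries, while replicates 1 and 2 overlapped 3Rb on 8 and lay below it on 12. The 1Rb_P libraries averaged 26.1, 26.1 and 25.4 CPM on 8 and 30.4, 30.9 and 29.9 CPM on 12. They lay above every 3Rb library and below 1Rb_M replicate 3. Of 400 windows 11 rose (2.75%) and 39 fell (9.75%), 0 and 22 of them in all 8 fits, against 18.2% and 20.2% called over all windows. The median difference was -0.068; it was -0.38 against replicate 3 alone and 0.11 without it, where 160 windows rose. Without 1Rb_M replicate 2, 115 fell. On the measure with 1 value per library they had 0.65, 0.71 and 0.70 in 3Rb, against 0.57, 0.50 and 1.03 in 1Rb_M, a difference of -0.013 (exact p = 1.0); without replicate 3 it was 0.15 and without 3Rb replicate 1 it was 0.0059. Over the rest of 8 and 12 it was 0.023 (exact p = 0.4). The libraries that were low here were those low on X and Y, and whether these share a source was not tested.

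Rises and falls also formed long blocks far from the centromeres, named here as the longest runs of called bins on a chromosome, after their values were seen. On chromosome 14 all bins from 79 to 118 Mb rose, in all 8 fits to 99 Mb, and the stretch averaged 18.2, 18.2 and 17.8 CPM in 3Rb, against 14.7, 15.4 and 14.4 CPM in 1Rb_M. On chromosome 12 all bins from 34 to 54 Mb rose in all 8 fits, and the stretch averaged 19.1, 19.3 and 19 CPM in 3Rb, against 15.4, 15.9 and 15.7 CPM in 1Rb_M. Chromosome 12 thus differed within itself, without a stable difference at its centromere and with one farther along. On chromosome 13 the run lay at 81 to 92 Mb (15.3 ± 0.201 CPM in 3Rb and 12.7 ± 1.05 CPM in 1Rb_M, SD, n = 3 each), and on chromosome 6 at 12 to 28 Mb (16.4 ± 0.201 CPM in 3Rb and 14.6 ± 0.587 CPM in 1Rb_M). In all 4 stretches the 3Rb libraries lay above all 1Rb_M libraries. 1Rb_P lay between their means, with 16.4 CPM on 14, 17.7 CPM on 12, 13.3 CPM on 13 and 15.4 CPM on 6.

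On chromosomes 4, 5, 7 and 8 the longest falls lay in the part far from the centromere. On chromosome 4 the bins from 123 to 145 Mb fell, with 12.3, 12.3 and 12.3 CPM in 3Rb, against 15.1, 14 and 15 CPM in 1Rb_M. On chromosome 5 those from 111 to 131 Mb fell, with 11.4, 11.4 and 11.5 CPM in 3Rb, against 14.6, 13.6 and 13.9 CPM in 1Rb_M. On chromosome 8 those from 114 to 128 Mb fell, in all 8 fits, with 11.8, 12 and 12 CPM in 3Rb, against 15.3, 14.3 and 15.4 CPM in 1Rb_M. In these stretches every 3Rb library lay below every 1Rb_M library, and replicate 3 did not stand apart from replicates 1 and 2. 1Rb_P averaged 14.1, 13.2 and 14 CPM there, between the means of 3Rb and 1Rb_M. Chromosome 7 had 83 of 143 bins down and 3 up, with its longest run from 129 to 146 Mb, and chromosome 11 had 62 of 119 down and 14 up. H3.3 at 6 weeks had medians between -0.068 and -0.043 in the longest falls of 4, 5, 7, 8 and 11, whose γH2AX medians were -0.33 to -0.21.

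The falls were concentrated where genes are dense. On the 13 autosomes in no translocation, 1028 of 2012 windows with 3 or more protein-coding genes fell (51.1%) and 73 rose (3.63%). Among windows with 1 to 2 genes 27.4% fell and 11.7% rose, and among those with none 15.4% fell and 15.4% rose. Per library, the median log2 ratio to input of gene-dense windows minus that of windows with no gene was -0.22, -0.17 and -0.20 in 3Rb, against 0.00481, -0.14 and 0.11 in 1Rb_M. All 3Rb libraries lay below all 1Rb_M libraries, with a difference of -0.19 (two-sided exact permutation p = 0.1, the lower bound for these group sizes). 1Rb_M spread over a wider range than the difference, and here replicate 2 rather than replicate 3 lay nearest to 3Rb: the difference was -0.25 without replicate 2, -0.13 without replicate 3 and -0.31 against replicate 3 alone. With 1 or more genes against none it was -0.080. The same measure in H3.3 was 0.93, 0.84 and 0.83 in 3Rb, against 0.85, 1.05 and 1.07 in 1Rb, and the groups overlapped.

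**Figure D4:**
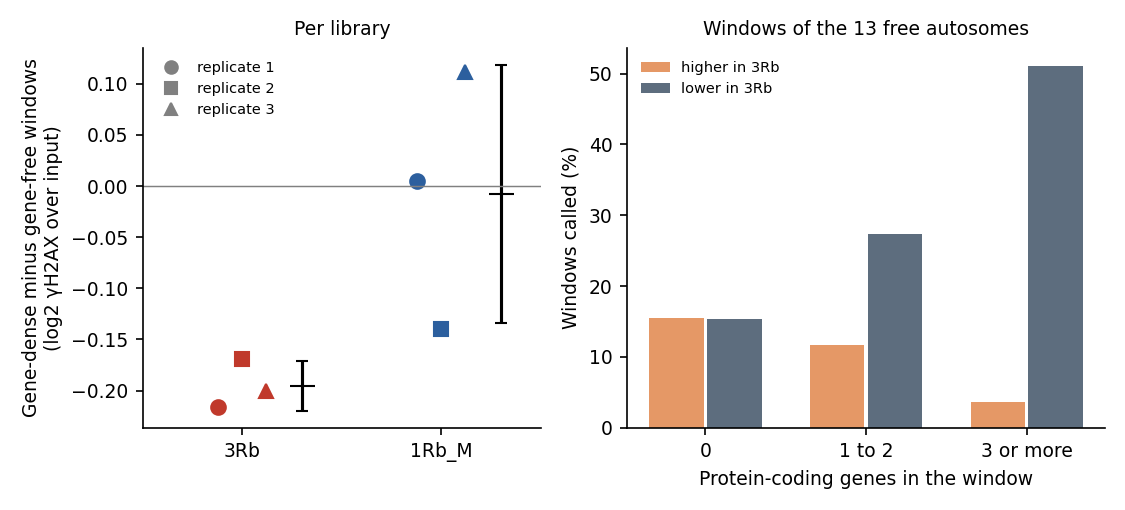
Left, for each 3Rb (red) and 1Rb_M (blue) library, the median log2 γH2AX over input of windows with 3 or more protein-coding genes minus that of windows with none on the 13 autosomes in no translocation, with mean and SD beside the points. Right, percent of those windows called higher (orange) or lower (grey) in 3Rb by number of genes; the share lower is 15.4, 27.4 and 51.1%.

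At single windows, 20 regions are named: runs of windows called in all 8 fits whose strongest window holds a gene, ranked by the difference there in the least favourable fit, at most 2 per chromosome. Runs whose strongest window holds no gene were passed over, also where a weaker window of theirs holds one, so that Gm20830 on Y and Vmn2r121, Srsx and Ott on X are given below with their gene lists. A value under a gene's name, here and in the lists, is that of 1 window overlapping it and not of the whole gene. For a list member it is the window with the smallest adjusted p. Such a window can hold further genes, as at Msh5, Psmc3ip, Mdc1 and Cd68, or only part of a long gene. The rule itself fixed their calls in the fits that left out 1 library or kept replicate 3 alone. They were also called in the rest of the 15 alternatives. Those fits reuse the counts that chose the windows, so these calls are not independent of the choice. H3.3, measured at 6 weeks in 3Rb and in 1Rb of the same cross as 1Rb_M, is given beside them, since no 3Rb input was analysed here and a difference in the number of genomic copies between strains would move both marks. Of the 10 rises, 4 lay on the joined chromosomes 1, 9 and 14, and their H3.3 did not pass the test. The window of Slc4a7, a bicarbonate transporter, on chromosome 14 (chr14:14750001-14800000) had 32.1, 33.2 and 31.3 CPM in 3Rb, against 15.4, 14.8 and 14.7 CPM in 1Rb_M. Its difference was 1.11 ± 0.078 (SE), adjusted p = 6.07e-14, with an H3.3 difference of 0.043. The window of Dync2h1, the heavy chain of the dynein that carries cargo in cilia, on chromosome 9 (chr9:7000001-7050000) had 27, 26.9 and 25.4 CPM in 3Rb, against 12.7, 13.1 and 11.8 CPM in 1Rb_M, a difference of 1.08 ± 0.060 (SE), adjusted p = 1.18e-16. It lay in a region of 17600 kb in which called windows were at most 1 window apart. The window of Rb1cc1, which acts at the start of autophagy, on chromosome 1 (chr1:6250001-6300000) had 26, 26.4 and 24.7 CPM in 3Rb, against 13.7, 12.3 and 12.4 CPM in 1Rb_M, a difference of 1.01 ± 0.061 (SE), adjusted p = 1.46e-15, in a region of 25000 kb. The window of Ppp3cb and Usp54 on chromosome 14 (chr14:20500001-20550000), which holds the Ppp3cb promoter printed above, had 28.2, 29.8 and 26.7 CPM in 3Rb, against 13.2, 15.6 and 14.4 CPM in 1Rb_M, a difference of 0.97 ± 0.070 (SE), adjusted p = 1.1e-13. In all 4 every 3Rb library lay well above every 1Rb_M library, and the difference against replicate 3 alone was 0.97 to 1.16. In each of them the γH2AX difference also exceeded that of H3.3 in the test of the difference between the marks (adjusted p = 5.48e-12 to 6.41e-09). All 20 windows were chosen on γH2AX values that enter this test, so its p is not free of that choice.

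The other 6 rises were larger, and H3.3 rose with γH2AX in each. Gm21301 on Y (chrY:10050001-10100000) had 296, 297 and 314 CPM in 3Rb, against 29.4, 31.6 and 47.1 CPM in 1Rb_M, a difference of 3.07 ± 0.26 (SE), adjusted p = 4.13e-12 beside 2.59 in H3.3. Gm20918, also on Y, differed by 2.90 beside 2.42. The window of Cwc22, a splicing factor that helps load the exon junction complex, on chromosome 2 (chr2:77900001-77950000) had 92.3, 98.9 and 109.7 CPM in 3Rb, against 15.9, 17.1 and 18.3 CPM in 1Rb_M, a difference of 2.55 ± 0.21 (SE), adjusted p = 2.72e-12 beside 2.34 in H3.3. That of Naip6, a member of a clustered family of intracellular bacterial sensors on chromosome 13, differed by 1.36 beside 1.27. In these 4 the difference between the marks did not pass the test (adjusted p = 0.281 to 0.556). At Gm21301 and Cwc22 the 3Rb libraries were several times every 1Rb_M library. The window of nonagouti (a), which encodes an antagonist of the melanocortin receptor, on chromosome 2 (chr2:155000001-155050000) had 68.2, 75.8 and 76.5 CPM in 3Rb, against 19.7, 18.2 and 23.5 CPM in 1Rb_M, a difference of 1.84 ± 0.18 (SE), adjusted p = 3.21e-10 beside 0.76 in H3.3, and γH2AX rose more than H3.3 (adjusted p = 8.54e-05). Reads from near-identical copies on Y and in the Naip family cannot be told apart, and the part of copy number in these rises was not tested.

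At the imprinted Snrpn and Snurf locus on chromosome 7 neighbouring windows differed. Snrpn encodes a spliceosomal protein and is expressed from the paternal copy. The window chr7:59950001-60000000, which holds the 3′ part of both genes, had 35.1, 32.6 and 38 CPM in 3Rb, against 11.2, 11.9 and 10.2 CPM in 1Rb_M, a difference of 1.67 ± 0.074 (SE), adjusted p = 1.91e-19. The next window, chr7:60000001-60050000, holds their shared promoter and had 12.6, 11.6 and 11.6 CPM in 3Rb, against 11.3, 13.1 and 9.33 CPM in 1Rb_M; the groups overlapped and the difference was 0.084 ± 0.091 (SE), adjusted p = 0.484, 0.35 against replicate 3 alone (adjusted p = 0.000192), -0.036 without it and 0.21, called, without 1Rb_M replicate 2. Beyond it, chr7:60050001-60100000, also in Snrpn, had 13.1, 13.3 and 12 CPM in 3Rb, against 10.7, 12.4 and 9.35 CPM in 1Rb_M; the groups overlapped, and the difference of 0.24 ± 0.092 (SE), adjusted p = 0.0369 was called but not in all 8 fits (0.45 against replicate 3 alone and 0.14 without it). On the other side of the 3′ window, chr7:59900001-59950000 had a difference of 0.12 and was not called with all libraries. Its difference was 0.29 against replicate 3 alone and 0.036 without it. It was called without 1Rb_M replicate 2 (0.23) and with the share of X as a covariate (0.27). The window with the upstream Snrpn start, chr7:60450001-60500000, had 12.3, 12.2 and 12.7 CPM in 3Rb, against 21, 21 and 17.7 CPM in 1Rb_M and fell by 0.68 ± 0.067 (SE), adjusted p = 2.55e-10. H3.3 changed by 0.84, 0.028 and -0.63 in the 3′, promoter and upstream windows, and γH2AX exceeded it in the 3′ window alone of these 3 (difference between the marks 0.83, adjusted p = 3.45e-09).

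Of the 10 named falls, 2 lay on Y, at Gm21708 (-1.42) and Gm10352 (-1.33), where H3.3 differed by -1.67 and -1.56. The window of Mup17, a major urinary protein gene on chromosome 4 (chr4:61550001-61600000), had 7.63, 7.06 and 7.61 CPM in 3Rb, against 18.9, 19.3 and 14.9 CPM in 1Rb_M, and Mup2 nearby had 6.47, 6.92 and 6.21 CPM in 3Rb, against 15.1, 15.6 and 12.2 CPM in 1Rb_M. H60b on chromosome 10, a ligand of the natural killer receptor NKG2D, had 8.14, 8.63 and 8.33 CPM in 3Rb, against 18, 17.6 and 16.3 CPM in 1Rb_M. A single window of Nlgn1 on chromosome 3 (chr3:25500001-25550000), a synaptic adhesion protein, had 12, 12.1 and 11.9 CPM in 3Rb, against 21.1, 22.6 and 26.3 CPM in 1Rb_M. In all 4 the 3Rb libraries lay below all 1Rb_M libraries. Their differences were -1.25, -1.13, -1.05 and -0.96, those of H3.3 were -1.11, -0.98, -0.95 and -0.80, and the difference between the marks did not pass the test in any of these 6 windows.

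The other 4 falls were larger in γH2AX than in H3.3 (test of the difference between the marks, adjusted p = 8.23e-06 to 0.0335). The window of Rbfox3, a neuronal splicing regulator, on chromosome 11 (chr11:118500001-118550000) had 8.63, 8.84 and 9.31 CPM in 3Rb, against 16.4, 14.9 and 16 CPM in 1Rb_M, a difference of -0.82 ± 0.070 (SE), adjusted p = 9.15e-12 beside -0.13 in H3.3. That of Ddx39b, an RNA helicase of mRNA export, and H2-D1, a class I molecule of the major histocompatibility complex, on chromosome 17 (chr17:35250001-35300000) had 10.4, 11.1 and 11.7 CPM in 3Rb, against 21.9, 20.6 and 20.1 CPM in 1Rb_M, a difference of -0.91 ± 0.064 (SE), adjusted p = 4.28e-14 beside -0.35. Glp1r on chromosome 17 (chr17:30900001-30950000), with the promoter printed above, had 12.3, 11.2 and 11.1 CPM in 3Rb, against 20.4, 18.4 and 21.7 CPM in 1Rb_M, a difference of -0.81 ± 0.066 (SE), adjusted p = 2.28e-12 beside -0.49. Elfn2 on chromosome 15 differed by -0.69 ± 0.077 (SE), adjusted p = 5.86e-09 beside -0.16. Every 3Rb library lay below every 1Rb_M library in these windows, and against replicate 3 alone the 4 differences from 1Rb_M were -0.91 to -0.75.

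**Figure D5:**
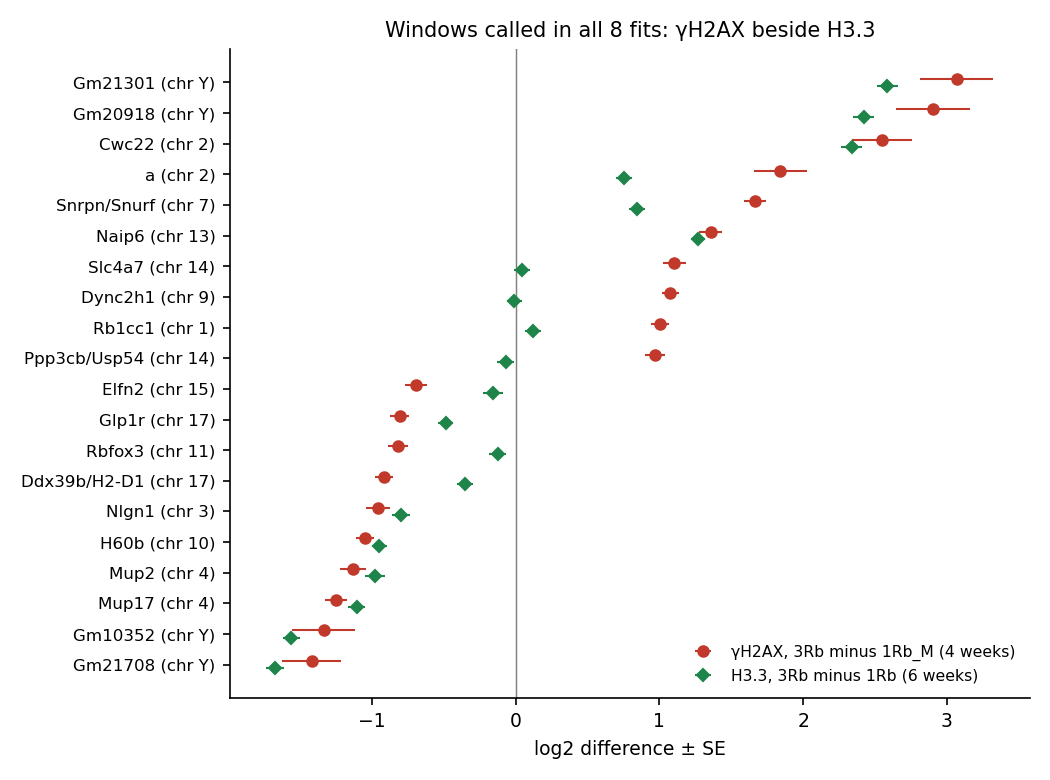
Differences (log2 ± SE) of γH2AX between 3Rb and 1Rb_M at 4 weeks (red circles) and of H3.3 between 3Rb and 1Rb at 6 weeks (green diamonds) at the 20 named windows. H3.3 lies near γH2AX at the windows on Y and at Cwc22, Naip6, Mup17, Mup2, H60b and Nlgn1, and near 0 at Slc4a7, Dync2h1, Rb1cc1 and Ppp3cb.

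Windows of genes that act in meiosis itself rose and fell at shares near or below those of all windows, and neither list below is shown to differ from other windows. In windows of meiotic recombination genes 10 of 61 tested windows rose (16.4%) and 11 fell (18%), against 18.2% and 20.2% of all windows, with a median of -0.024 beside 0.014 over all windows; rises numbered 6 without 3Rb replicate 2, 16 without 1Rb_M replicate 2, 21 without 1Rb_M replicate 3, and falls 6 without 3Rb replicate 1, 7 without 1Rb_M replicate 1. Mcmdc2, an MCM-like protein needed for recombination, lies in the risen stretch of chromosome 1 and had 30.9, 31.4 and 29.7 CPM in 3Rb, against 16.9, 17.3 and 18.6 CPM in 1Rb_M, a difference of 0.80 ± 0.083 (SE), adjusted p = 1.01e-09. Msh5 on chromosome 17, which stabilises crossover intermediates, had 10.8, 11.1 and 11.3 CPM in 3Rb, against 16.8, 14.6 and 16 CPM in 1Rb_M, a difference of -0.51 ± 0.064 (SE), adjusted p = 5.84e-08. Psmc3ip on chromosome 11, a partner of the recombinases in strand invasion, differed by -0.40. Of the synaptonemal complex and cohesin list 6 of 30 tested windows rose (20%) and 3 fell (10%) (the number that fell was 0 without 3Rb replicate 1, 1 without 1Rb_M replicate 1, 7 without 1Rb_M replicate 2): Sgo2a, which protects centromeric cohesin, differed by 0.26, Hormad2, which marks unpaired axes, by 0.22 (not called with library totals), and Tex12, of the central element, by 0.20, not called without 3Rb replicate 2 (0.15), with library totals (0.11) or with DESeq2 (0.20).

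Genes of the pathway that lays down γH2AX and silences unpaired chromatin were called at shares near those of all windows: 8 of 43 tested windows rose (18.6%) and 9 fell (20.9%), against 18.2% and 20.2%, with a median of 0.067. Rises numbered 5 without 3Rb replicate 2, 5 without 1Rb_M replicate 1, 18 without 1Rb_M replicate 3, and falls 5 without 3Rb replicate 1, 5 without 1Rb_M replicate 1. Mdc1 on chromosome 17, the reader that spreads γH2AX over chromosome loops, had 9.52, 10.2 and 10.9 CPM in 3Rb, against 15.4, 12.8 and 13.9 CPM in 1Rb_M, a difference of -0.45 ± 0.076 (SE), adjusted p = 9.91e-06. Ehmt2 on chromosome 17, an H3K9 methyltransferase, had 9.7, 10.6 and 10.8 CPM in 3Rb, against 15.3, 14.1 and 15.3 CPM in 1Rb_M, a difference of -0.52 ± 0.069 (SE), adjusted p = 1.96e-07. Chek1 on chromosome 9, a kinase of the DNA damage checkpoint, had 17.8, 18.4 and 18.6 CPM in 3Rb, against 14.6, 15.4 and 14.1 CPM in 1Rb_M, a difference of 0.31 ± 0.055 (SE), adjusted p = 2.02e-05. These values concern the mark on the genes and not their expression, which was not measured.

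Windows of genes that mark spermatogonia and somatic cells of the testis fell more often than they rose. Over all windows 18.2% rose and 20.2% fell, and on the 13 autosomes in no translocation 27.4% of windows with 1 to 2 genes and 51.1% of those with 3 or more fell. Of spermatogonia genes 3 of 38 tested windows rose (7.89%) and 16 fell (42.1%), 10 of the falls in all 8 fits, with a median of -0.11. Pou5f1, a pluripotency factor, had 10.9, 11.2 and 10.8 CPM in 3Rb, against 15.4, 13.8 and 14.4 CPM in 1Rb_M, Ret, a receptor for the niche factor GDNF, had 10.5, 9.93 and 9.89 CPM in 3Rb, against 13.7, 13.3 and 13.2 CPM in 1Rb_M, and Utf1, of undifferentiated spermatogonia, had 11.5, 11 and 11.6 CPM in 3Rb, against 16.7, 12.8 and 17 CPM in 1Rb_M. All 3 fell, by 0.41, 0.41 and 0.45 on the log2 scale. Of Sertoli genes 5 of 36 tested windows rose (13.9%) and 12 fell (33.3%): the hormone gene Amh differed by -0.41 and the sex-determining factor Sox9 by -0.32, but Cldn11, a junction protein on chromosome 3, had 25.6, 28.2 and 27.1 CPM in 3Rb, against 17.6, 18.2 and 20.7 CPM in 1Rb_M, a difference of 0.52 ± 0.084 (SE), adjusted p = 6.23e-06. Rises of this list numbered 3 without 3Rb replicate 1, 2 without 3Rb replicate 2, 2 without 3Rb replicate 3, 2 without 1Rb_M replicate 1, 3 without 1Rb_M replicate 2, 12 without 1Rb_M replicate 3. Of Leydig genes 0 of 15 tested windows rose and 7 fell (46.7%), 7 in all 8 fits: Cyp11a1, the first enzyme of steroid synthesis, had 10.7, 11.3 and 11.7 CPM in 3Rb, against 15.6, 14.3 and 14.4 CPM in 1Rb_M, and the lipoprotein receptor Scarb1 and luteinizing hormone receptor Lhcgr differed by -0.36 and -0.23. Of vessel, muscle and blood genes 0 of 21 tested windows rose and 7 fell (33.3%), among them Cd68 (-0.31), Csf1r (-0.26) and Pecam1 (-0.24). Of spermatid genes 7 of 32 tested windows rose (21.9%) and 10 fell (31.2%), 3 of the rises and 6 of the falls in all 8 fits; by smallest adjusted p, the sperm glycolytic enzyme Gapdhs, the fusion protein Izumo1 and protamine Prm1 differed by -0.38, -0.41 and -0.34. Housekeeping genes fell as well: 1 of 25 tested windows rose (4%) and 10 fell (40%), with Eef2 at -0.40, Tubb5 at -0.45 and Rplp0 at -0.34. None of these lists is shown to differ from other windows with genes.

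Windows of histone genes, imprinted genes and the major histocompatibility complex also fell more often than they rose, against the same shares of all windows and of windows with genes, and none is shown to differ from those. Of histone gene windows 0 of 22 tested windows rose and 12 fell (54.5%) (7 without 1Rb_M replicate 1), with Macroh2a1, a histone variant of silent chromatin, at -0.41 and the linker histones H1f8 and H1f0 at -0.52 and -0.38. Of imprinted gene windows 10 of 129 tested windows rose (7.75%) and 42 fell (32.6%) (26 without 1Rb_M replicate 1); Dio3 on chromosome 12, a deiodinase of the imprinted Dlk1 and Dio3 cluster, had 10.8, 11 and 10.6 CPM in 3Rb, against 15.9, 14.1 and 15.2 CPM in 1Rb_M, a difference of -0.48 ± 0.066 (SE), adjusted p = 3.46e-07. In the major histocompatibility complex 0 of 29 tested windows rose and 17 fell (58.6%) (10 without 3Rb replicate 2); the window of H2-Q1 and H2-Q2 had 9.97, 9.56 and 10.2 CPM in 3Rb, against 17.1, 16 and 15.4 CPM in 1Rb_M. Of major urinary protein windows 2 of 25 tested windows rose (8%) and 18 fell (72%), 16 of the falls in all 8 fits, and H3.3 fell in 18 of the 25; Mup1 had 8.73, 8.59 and 8.57 CPM in 3Rb, against 17.4, 17.6 and 16 CPM in 1Rb_M. Urinary protein genes and class I genes are near-identical copies whose reads the authors' counting could split, so values of single members are uncertain.

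Windows of clustered receptor genes were called in both directions. Of olfactory receptor windows 79 of 581 tested windows rose (13.6%) and 48 fell (8.26%), against 18.2% and 20.2% of all windows, with a median of 0.043 that was 0.18 against replicate 3 alone and -0.012 without it; 171 without 1Rb_M replicate 2 rose and 91 without 1Rb_M replicate 3 fell. Olfr720 on chromosome 14 had 22.3, 21 and 20.9 CPM in 3Rb, against 14.2, 12.6 and 12.5 CPM in 1Rb_M, a difference of 0.71 ± 0.059 (SE), adjusted p = 3.62e-12, and the window of Olfr1458 and Olfr1459 on chromosome 19 differed by 0.65. Of vomeronasal receptor windows 27 of 325 tested windows rose (8.31%) and 44 fell (13.5%), and these numbers moved with the library left out. The number that rose was 12 without 3Rb replicate 1, 14 without 3Rb replicate 2, 13 without 3Rb replicate 3, 47 without 1Rb_M replicate 2, 17 without 1Rb_M replicate 3, and the number that fell was 29 without 1Rb_M replicate 1, 92 without 1Rb_M replicate 3. Vmn2r121 on X had 58.8, 61.7 and 62.8 CPM in 3Rb, against 9.4, 10.5 and 10.7 CPM in 1Rb_M, a difference of 2.58 ± 0.20 (SE), adjusted p = 1.24e-12 beside 1.41 in H3.3, with 53.2 CPM in 1Rb_P. The window of Vmn1r116 and Vmn1r117 on chromosome 7 differed by -0.61.

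Genes of X and Y showed what the 1Rb_M spread allowed. Of 150 windows of X single-copy genes 20 rose (13.3%, against 21.9% over all of X), 0 of them in all 8 fits. The number that rose was 2 without 3Rb replicate 1, 0 without 3Rb replicate 2, 0 without 3Rb replicate 3, 0 without 1Rb_M replicate 1, 1 without 1Rb_M replicate 2, 150 without 1Rb_M replicate 3. Their median was 0.43, -0.015 against replicate 3 alone and 0.70 without it. A window of Dmd, the dystrophin gene (chrX:83500001-83550000), had 47.3, 48.7 and 47 CPM in 3Rb, against 25, 27.7 and 40.4 CPM in 1Rb_M, a difference of 0.62 ± 0.20 (SE), adjusted p = 0.0147, with replicate 3 the nearest to 3Rb. It was not called without 3Rb replicate 2 or 3 or 1Rb_M replicate 1 (0.61, 0.62 and 0.49). Neither it nor Scml2 was called with only the 6 libraries (0.61 and 0.57). The germline Polycomb gene Scml2 differed by 0.59 and was not called without any single library other than 1Rb_M replicate 3 (0.46 without 1Rb_M replicate 1 to 0.63 without 3Rb replicate 1).

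A few windows of multicopy genes on X and Y differed beyond that spread, with H3.3 beside them. Of X ampliconic gene windows 7 of 35 tested windows rose (20%) and 2 fell (5.71%), against 21.9% higher over all of X, 5 of the rises in all 8 fits and 33 without 1Rb_M replicate 3. Their median was 0.38, and -0.11 against replicate 3 alone. Srsx had 133, 151 and 151 CPM in 3Rb, against 17.1, 15.4 and 28.4 CPM in 1Rb_M, a difference of 2.84 ± 0.24 (SE), adjusted p = 9.79e-12 beside 2.58 in H3.3, and Ott had 59.7, 63.8 and 63.3 CPM in 3Rb, against 17.4, 16.6 and 27.6 CPM in 1Rb_M, a difference of 1.60 beside 1.2. Luzp4 differed by 1.15. In Srsx and Ott every 3Rb library exceeded every 1Rb_M library, replicate 3 included. 1Rb_P averaged 55.1 CPM at Srsx, 60.0 CPM at Ott and 64.4 CPM at Luzp4, where 3Rb averaged 63.5 CPM and 1Rb_M 28.7 CPM, so that at Ott and Luzp4 it was near 3Rb. On the long arm of Y, where gene families occur in many copies, 3 of 9 tested windows rose (33.3%) and 2 fell (22.2%), with 6 up without 1Rb_M replicate 3. The spermatid gene Ssty1 had 75, 83 and 83.7 CPM in 3Rb, against 34.6, 34.2 and 57.7 CPM in 1Rb_M, and Gm20830 had 394, 407 and 428 CPM in 3Rb, against 29, 30.3 and 48.2 CPM in 1Rb_M, with H3.3 differences of 0.51 and 2.99. Their γH2AX differences were 0.93 and 3.51, and that of Srsy was 0.87. On the short arm 0 of 19 tested windows rose and 1 fell (5.26%): Rbmy, an RNA-binding protein of germ cells, had 32.2, 33.9 and 35.3 CPM in 3Rb, against 49.9, 48.5 and 82.2 CPM in 1Rb_M, a difference of -0.83 ± 0.22 (SE), adjusted p = 0.00259 beside -1.2 in H3.3. Usp9y had 48.5, 47.5 and 50.9 CPM in 3Rb, against 29.1, 31.1 and 47.5 CPM in 1Rb_M, not called (adjusted p = 0.0818) except, among the fits without 1 library, without 1Rb_M replicate 3, where 17 windows of the short arm list rose. Uty, a histone demethylase homologue, differed by 0.38 and was not called. Over all of Y, 588 of the 589 windows lower in γH2AX and 219 of the 232 higher were called the same way in H3.3. H3.3 itself was lower in 1486 of the 1791 windows of Y (83%), and 39.6% of these were lower in γH2AX. Falls on Y numbered 301 without 3Rb replicate 1, 358 without 3Rb replicate 2, and rises 720 without 1Rb_M replicate 3. Summed over Y, H3.3 fell by 0.36 (log2, adjusted p = 0.00294).

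Over the genome H3.3 differed less. Between 3Rb and 1Rb at 6 weeks it was called in 3225 windows (6.07%): it rose in 1096 windows (2.06%) and fell in 2129 (4.01%). Without 1Rb replicate 1 it was called in 4942. The γH2AX difference exceeded that of H3.3 in 4772 windows (8.98%) and lay below it in 4253 (8.01%); without 1Rb_M replicate 3 both directions together numbered 16118, against 9025 (17%) with all libraries. In the first 10 Mb of 1, 3, 9 and 14 the γH2AX difference exceeded that of H3.3 in 703 of all 800 windows (87.9%). Of the 711 that rose in γH2AX 678 did, with a median difference of 0.58 in γH2AX and 0.10 in H3.3. Of all windows that rose in the genome 42.0% did. The γH2AX values that chose such windows also enter this test, so its outcome there is not independent of the choice. Of all 2012 gene-dense windows of the 13 autosomes in no translocation, 208 (10.3%) passed it with γH2AX below H3.3. Among the 1028 of these that fell, 202 passed it. Among the 232 rises on Y, 6 did, but over all of Y the γH2AX difference exceeded that of H3.3 in 537 of 1791 windows (30.0%). The marks also differ in age, antibody and depth, which this test cannot tell apart from the mark.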

How the data were processed

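The deposited tables give counts of reads per 50 kb window along mm10, unnormalized whole numbers, made by the authors with CASAVA 1.8 and BWA per the submitters' processing notes. Settings, and any removal of duplicate or multiply mapping reads, are not given in the sources used here; libraries were prepared with an Illumina kit on DNA from sonicated whole testis, per the labels' protocols. Groups came from the titles. The 3 inputs were pooled: those titled 1Rb_M and B6 are from 4 weeks and that titled Cg is from 6 weeks. The input with 1Rb_M in its title is labelled with the strain of 1Rb_P.

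Counts of the 9 γH2AX libraries (3Rb, 1Rb_M, and 1Rb_P for the estimate of the spread) entered 1 edgeR fit (version 4.0.16, R 4.3.3), with TMM scaling and the quasi-likelihood test over the 53118 of 54520 windows whose mean count reached 10, contrast 3Rb minus 1Rb_M, Benjamini-Hochberg adjustment over all windows, adjusted p under 0.05 as a call. Adjusted p-values of γH2AX windows are from this fit unless another is named. Those of bins, chromosomes, H3.3, the difference between the marks and other sets of libraries come from fits of their own. Each was adjusted over all windows, bins or chromosomes of that fit. Exact permutation tests (scipy 1.17.1) are named where used, and each compared 3 against 3 libraries. Bins of 1 Mb (mean count at least 200) and chromosomes were tested with the same scaling. H3.3 was fitted over its 9 libraries at 6 weeks (3Rb, 1Rb, and those titled Cg for the estimate of the spread). The difference between the marks was fitted over 18, these 9 and the 9 of γH2AX. CPM are counts scaled by edgeR. Log2 ratios to input per window used an added count of 0.5. Windows with pooled input over 5 or under 0.2 times the median (1503) were left out of named regions. Functions were tested on simulated data.

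Genes came from the GRCm38.p6 RefSeq table (21772 protein-coding genes placed, 29756 windows with a gene); 8 names of the 19 lists had no match. Named regions were windows called with 1 sign in all 8 fits (all libraries, without each of the 6, and with 1Rb_M replicate 3 as the only 1Rb_M library), merged when at most 1 window apart and ranked by their smallest absolute difference over these fits: 10 per direction whose top window holds a gene, at most 2 per chromosome and 2 genes each. Of each list, up to 3 members with the smallest adjusted p were named, and all chromosomes and 7 regions. A member of the X single-copy list is not reported here. The comparison, members, lists and rules were chosen with earlier results of these data known. Alternatives were library totals, TMM from the 13 autosomes in no translocation, DESeq2 1.42.0 (mean dispersion fit), no count filter, no windows of unusual input, only the 6 libraries, the replicate number as a block, the share of X as a covariate, and leaving out each library.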

Additional observations from a re-analysis of the deposited data

How the results depend on the processing

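The wide spread of 1Rb_M limited X, Y and the starts of 8 and 12 most, and leaving out replicate 3 or keeping it as the only 1Rb_M library also changed whether chromosomes 2, 4, 6, 8, 9 and 12 were called, whereas 702 of the 711 rises at the starts of 1, 3, 9 and 14 were called in all 8 fits. With 3 libraries a group, exact tests cannot pass 0.05, and their p says nothing about stability. Counting error was 3.58 to 3.81% at the median window, which limits windows with fewer counts most. No 3Rb input was analysed here, and copy number, strain and translocation cannot be told apart. The cause of each change below was not tested. Of 1095 alternative values of the 73 windows named for size, list or place, 2 changed sign, 26 fell short of the threshold and 10 newly passed it. With library totals 4531 windows and 234 bins rose, 16197 windows fell, and 13653 differed from H3.3; chromosomes 1, 3, 12 and 13 turned to -0.016, -0.0094, -0.052 and -0.043, and the Snrpn promoter window to -0.019. With the share of X as a covariate 14638 windows and 1084 bins rose, and chromosomes 12 and Y were -0.013 and -0.27. Against 1Rb_M replicate 3 alone 14620 windows and 1056 bins rose, and chromosomes 12, X and Y were -0.018, -0.0061 and -0.29. In that setting the 1 value per library differed by -0.024 on X, -0.31 on Y, -0.34 at the starts of 8 and 12, 0.57 at those of 1, 3, 9 and 14 and -0.0080 at those of the others. It differed by -0.034 over the rest of 8 and 12 and 0.11 over the rest of 1, 3, 9 and 14, and the gene density contrast was -0.31. With all autosomes as the base, the starts of the others gave -0.031 and the rest of 8 and 12 -0.017. Leaving out each library in turn, 5 (without 3Rb replicate 1) to 12 chromosomes were called, 2752 to 4942 H3.3 windows (most without 1Rb replicate 1) and 6163 to 16118 windows differing from H3.3 (most without 1Rb_M replicate 3). The starts of 8 and 12 then gave -0.11 to 0.15, 0.0059 without 3Rb replicate 1, and the Snrpn promoter window -0.036 to 0.21. Leaving out 1 library called 6881 to 12440 windows higher and 8309 to 12179 lower.

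Same-numbered 3Rb and 1Rb_M libraries deviated from their group means with correlations of 0.017, -0.25 and -0.058 over 48016 windows off X and Y, and no label ties the numbers, so they were not treated as pairs. With the replicate number as a block, 9267 windows rose and 10074 fell, 542 bins rose and 635 fell, 7 chromosomes, 2931 H3.3 windows and 8156 windows differing from H3.3 were called. In pairs of equal number the exact sign-flip p was 0.25 for X, for the starts of 1, 3, 9 and 14 and for the gene density contrast, the lowest 3 pairs allow.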
